A study of Mus musculus with 12 samples.

Results

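The genes of the proteasome and its helper proteins were compared between lineage-depleted bone marrow of E4bp4-/- and E4bp4+/+ mice. Members were the genes whose symbol begins with Psma, Psmb, Psmc, Psmd, Psme, Psmf or Psmg and a digit, each measured on its transcript cluster (the array's unit, a group of probes summarised to 1 value) of highest mean level. There were 50 such genes among 17807 genes tested, and all 50 passed the filter on low values. By role they were 14 genes of the 20S core, 17 of the 19S cap, 5 of the immunoproteasome and its PA28 activator, 10 other activators, inhibitors and assembly chaperones, and 2 tissue-restricted core subunits. Psmc3ip and Psme3ip1, the remaining 2, matched by name only: they encode partners of proteasome proteins and not subunits.

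The study hybridised RNA from 12 mice, 6 of each genotype, to 1 GeneChip Mouse Gene 1.0 ST array per mouse. It asks which genes are controlled by E4bp4 (gene symbol Nfil3), a basic leucine zipper transcription factor. Magnetic beads had taken out mature cells by Ter119, GR1, CD11b, B220, CD2 and NK1.1, so that progenitors were enriched. The labels give no strain, age or sex of the mice, no treatment, and no description of the knockout allele or of the cells it acts in.

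The 26S proteasome degrades proteins tagged with ubiquitin. Its 20S core is a barrel of outer alpha rings and inner beta rings, with the protease sites on Psmb6 (beta-1), Psmb7 (beta-2) and Psmb5 (beta-5), and the 19S cap recognises, unfolds and feeds in the substrates. Immune cells and cells exposed to interferon gamma replace these catalytic subunits by Psmb9, Psmb10 and Psmb8, which makes the immunoproteasome and changes the peptides offered on MHC class I. Blood-forming cells commonly hold both forms.

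Promoters of 3 cap genes and of an immunoproteasome gene are shown because the cap genes had the lowest p-values of their group and the difference of Psmb8 had the other sign. Each line gives the 250 bases before the annotated start, from the 300-base windows of RefSeq on GRCm38.p6, with motif matches in capitals.
Psmc6 (chr14:45329574-45329823, plus strand): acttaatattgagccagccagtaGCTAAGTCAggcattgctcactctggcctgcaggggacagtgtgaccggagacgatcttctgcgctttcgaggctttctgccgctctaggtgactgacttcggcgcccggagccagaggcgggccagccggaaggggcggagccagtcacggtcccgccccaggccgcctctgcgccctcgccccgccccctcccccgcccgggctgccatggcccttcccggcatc
Psmd12 (chr11:107479278-107479527, plus strand): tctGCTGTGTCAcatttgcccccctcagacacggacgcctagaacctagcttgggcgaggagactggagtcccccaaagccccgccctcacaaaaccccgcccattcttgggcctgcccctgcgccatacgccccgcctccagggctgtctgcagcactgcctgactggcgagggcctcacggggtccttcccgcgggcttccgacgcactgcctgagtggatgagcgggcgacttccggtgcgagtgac
Psmd4 (chr3:95042615-95042864, minus strand): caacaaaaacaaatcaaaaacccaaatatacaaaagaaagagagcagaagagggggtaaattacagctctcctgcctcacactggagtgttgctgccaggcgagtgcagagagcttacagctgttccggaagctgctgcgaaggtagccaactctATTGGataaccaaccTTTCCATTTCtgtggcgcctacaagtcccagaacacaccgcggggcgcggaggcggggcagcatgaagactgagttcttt
Psmb8 (chr17:34197945-34198194, plus strand): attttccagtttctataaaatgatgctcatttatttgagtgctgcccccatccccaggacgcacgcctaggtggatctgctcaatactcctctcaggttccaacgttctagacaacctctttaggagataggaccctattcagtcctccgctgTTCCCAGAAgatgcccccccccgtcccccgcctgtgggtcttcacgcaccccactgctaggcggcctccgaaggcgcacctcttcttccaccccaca

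The capitals in Psmc6 and Psmd12 are matches on the reverse strand to the antioxidant response element core TGACNNNGC, the element through which Nfe2l1 drives proteasome genes. Those in Psmd4 are a reverse CCAAT box and a reverse match to the interferon-stimulated response element core GAAANNGAAA. The match in Psmb8 is a gamma-activated site, TTCNNNGAA. Psmb9 and Psmb10, which also had positive differences, are not shown. In the same 250 bases Psmb9 held only a CCAAT box and Psmb10 held no match. Both strands of the whole 300-base window were searched, and the matches shown do not overlap each other. The antioxidant response core was in 2 of 14 cap and 2 of 11 core promoters (Psmb5 and Psmb6), against 14% of 27025 genes. The CCAAT box was in 4 cap and 6 core promoters, against 41.1% of genes. Neither TTACGTAA nor TTATGTAA, sites that E4BP4 binds, was found in the core, cap or immunoproteasome windows, and 1.23% of all genes hold either. The interferon element was in Psmb3, Psmd4 and Psme1 of these 3 groups, against 3.99% of genes, and the gamma-activated site in Psmd2 and Psmb8, against 9.55%. Windows were matched for 42 of the 50 genes, and not for Psma8, Psmb1, Psmb2, Psmb7, Psmc3, Psmd3, Psmd7 and Psmg2. A match describes letters only.

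Of the 12 stem and progenitor genes tested, 7 had a mean level of 8 log2 or more, and Mecom, Procr, Tek, Slamf1 and Hlf were lower. Kit, the stem cell factor receptor, averaged 11.26 log2 in knockout mice, against 11.07 in wild type ones. Of the depleted lineages, Cd2 averaged 5.22 and 5.19 and Ly6g 5.24 and 4.97, near the arrays' 20th percentiles of 4.93 to 4.99, while Itgam (CD11b) averaged 7.69 and 7.39 and Ptprc, the gene of B220 and of CD45 on most blood cells, 8.88 and 8.75. Nfil3 ran from 6.34 to 6.92 in the knockout and its wild type values from 6.94 to 7.66, without overlap. Knockout replicate 1 stood apart: its Xist level was 6.08, against 12.1 or more on the others. Its levels of the Y-linked genes Eif2s3y and Uty were 7.37 and 7.7, against at most 4.13 and 4.66 elsewhere. By these genes it came from a male and the other 11 arrays from females, so the knockout group mixes sexes. Knockout replicate 1 also had a mean over 14 neutrophil granule genes of 10.26, against 8.09 to 9.04 on the other 11 arrays. Where leaving out this array moved a result strongly, the value without it is given too. Over all 29541 transcript clusters tested, limma's moderated test called 0 at a Benjamini-Hochberg adjusted p under 0.05 (0%), with a smallest adjusted p of 0.109. At an unadjusted p under 0.05 it found 1889 lower in the knockout (6.39%) and 2502 higher (8.47%).

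The 19S cap genes lay below the wild type in the knockout throughout: all 17 had a negative difference, with a median of -0.084 log2 and a range of -0.17 to -0.007. In limma 0 passed the adjusted threshold, and 9 were lower at an unadjusted p under 0.05 with none higher. The background depends on level, since well-expressed genes lay lower in the knockout as a class. Of 7460 genes with a mean level of 8 log2 or more, 60.1% had a negative difference, 10.8% were lower and 3.83% higher at an unadjusted p under 0.05, and the median was -0.021. The mean level of the 17 cap genes ran from 10.335 to 10.408 on the knockout arrays and from 10.412 to 10.543 on the wild type arrays. The ranges of these array means did not overlap, by a margin smaller than the spread within either genotype (SD 0.028 and 0.049, n = 6 each). RNA of a whole cell fraction was measured, so fewer cells of a type and less RNA per cell cannot be told apart.

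**Figure D1:**
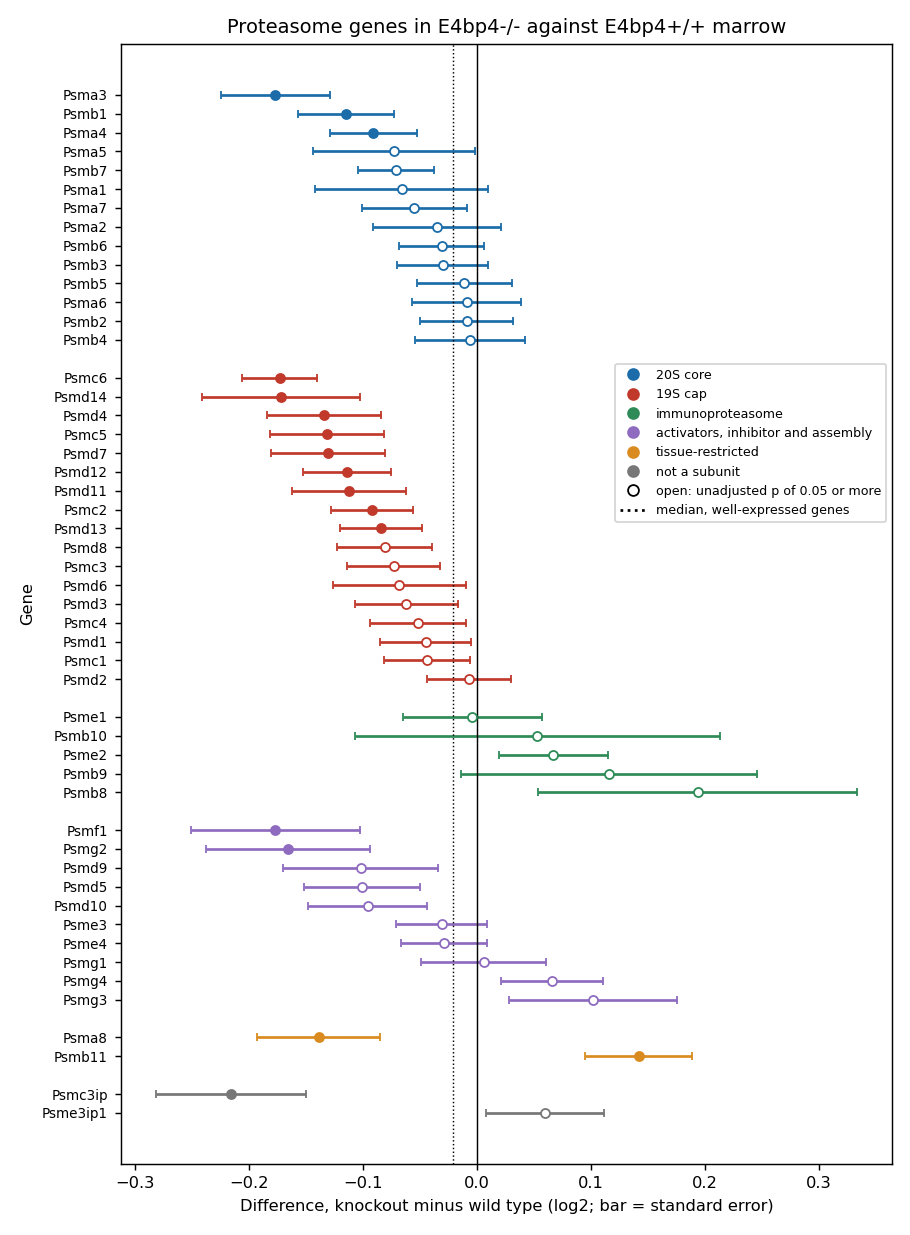
Difference between E4bp4-/- and E4bp4+/+ (x axis, log2, knockout minus wild type) for each of the 50 genes (y axis), with standard errors from limma and 6 arrays per genotype; filled points have an unadjusted p under 0.05 and the dotted line is the median of 7460 well-expressed genes. All 17 cap and 14 core genes lie left of 0, and 4 of the 5 immunoproteasome genes lie right of it.

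Psmc6, an ATPase of the ring that unfolds substrates, had the lowest p of all members. Its levels in the knockout had a lowest value of 10.17, a median of 10.19 and a highest of 10.23 log2, against 10.27, 10.38 and 10.40 in the wild type. Every knockout array was thus below every wild type array. The difference was -0.17 ± 0.033 log2 (SE), a level 1.13-fold lower, with an exact two-sided permutation p of 0.00216, the smallest that 924 permutations can give, and a limma adjusted p of 0.14. Such complete separation downward occurred in 0.65% of all transcript clusters and 1.5% of the well-expressed genes. It occurred in 2 of the 50 members, Psmc6 and the core gene Psma3, on the cluster used for each.

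Psmd12, a scaffold subunit of the lid, which carries the cap's deubiquitinating enzyme, was at 9.89, 9.93 and 9.998 in the knockout (lowest, median, highest) and 9.97, 10.05 and 10.14 in the wild type. The genotypes overlapped through knockout replicate 3 and the lowest wild type arrays. Its difference was -0.11 ± 0.039 log2, with an exact permutation p of 0.00649 and a limma adjusted p of 0.231. Psmd4, a ubiquitin receptor of the base, was at 9.55, 9.69 and 9.76 against 9.68, 9.81 and 9.89. Its ranges overlapped more, and the difference was -0.13 ± 0.05 log2 with an exact permutation p of 0.0238 and a limma adjusted p of 0.265.

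Among the 6 ATPases, 3 were lower at the unadjusted threshold: Psmc6, Psmc5 (-0.13 ± 0.05) and Psmc2 (-0.092 ± 0.036). The others, Psmc1, Psmc3 and Psmc4, differed by -0.044 to -0.073. Psmc1 had another transcript cluster, not used because it was dimmer, at -0.18 ± 0.043 and without overlap between genotypes. Of the 8 lid genes 5 were lower at that threshold, among them Psmd14, the lid's deubiquitinase, at -0.17 ± 0.069; the rest, Psmd3, Psmd6 and Psmd8, lay between -0.062 and -0.081. The large base scaffolds Psmd1 and Psmd2 differed by -0.045 ± 0.04 and -0.007 ± 0.037.

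The count of cap genes past that threshold depended on single arrays and on scaling. Without wild type replicate 3 or wild type replicate 4, 4 cap genes were lower at an unadjusted p under 0.05, against 8.16% and 8.23% of well-expressed genes. Without knockout replicate 1 there were 8, against 8.54%. Leaving out both arrays numbered 1 gave 3, against 8.28%. With each array left out, 17 of 17 differences were negative, or 16 without knockout replicate 2, wild type replicate 2 or wild type replicate 4. In these fits 57.1% to 62.1% of well-expressed genes were negative. Quantile normalisation gave 6 lower and 16 of 17 negative, where 8.06% of well-expressed genes were lower and 51.9% negative. Centring each array on its median gave 13 lower and 17 of 17 negative, where 22.5% of well-expressed genes were lower and 75.7% negative. Across all 50 members the counts lower and higher at that threshold were 16 and 1 with the authors' values, 10 and 0 after quantile normalisation and 24 and 0 after centring. Of the 29541 transcript clusters the counts were 1889 and 2502, 1937 and 1714, and 3711 and 1044 in the same order. The 16 included Psmc3ip, which is not a subunit, and Psma8, and the 1 higher was Psmb11. Psma8 and Psmb11 lay below the array medians.

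**Figure D2:**
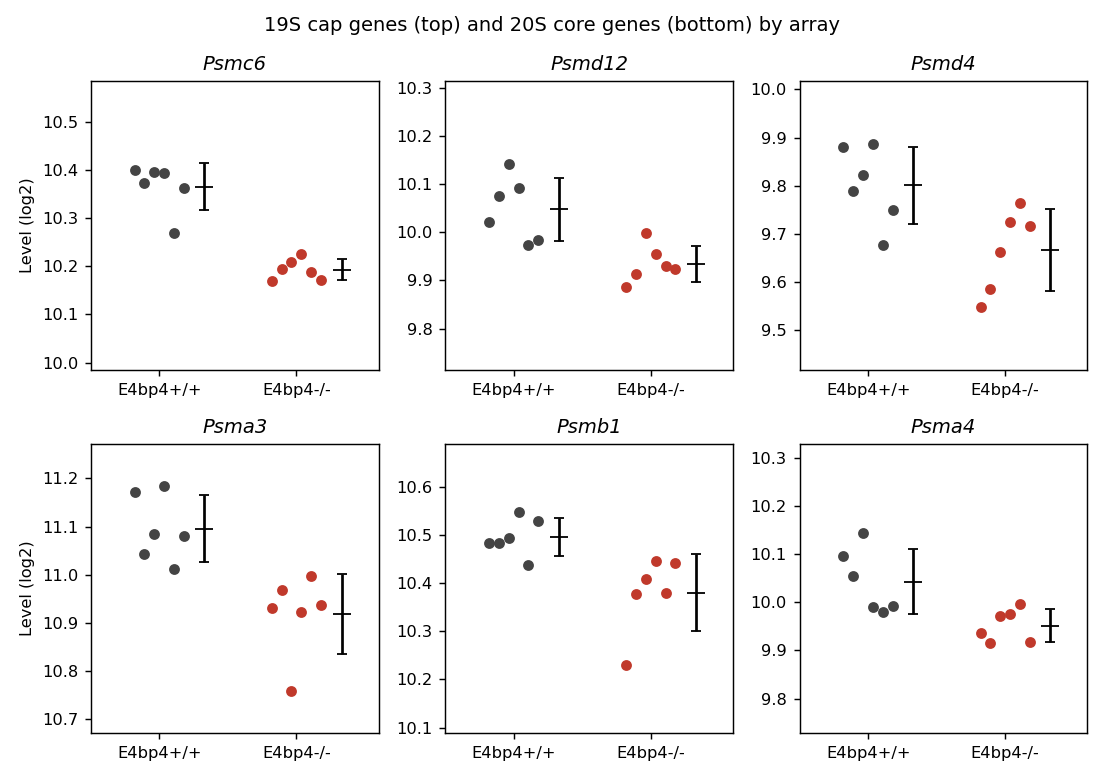
Level (y axis, log2) of 3 cap genes, top row, and 3 core genes, bottom row, on 6 arrays per genotype; each point is a mouse and the bar beside it is the mean ± SD. All panels span 0.6 log2; the genotypes do not overlap for Psmc6 and Psma3.

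The 20S core had smaller differences in the median than the cap, a contrast that was not tested. All 14 constitutive core genes had a negative difference, where 60.1% of well-expressed genes did. Their median was -0.045 log2, with a range of -0.18 to -0.006. Against 10.8% of well-expressed genes, 3 core genes (21.4%) were lower at an unadjusted p under 0.05. Those were Psma3, Psma4 and Psmb1, structural subunits without a protease site. Array means over the 14 genes ran from 11.064 to 11.118 in knockout mice, against 11.089 to 11.212, so they overlapped. After quantile normalisation 10 of the 14 were negative, where 51.9% of well-expressed genes were. Without wild type replicate 4, 10 were negative, where 57.1% of well-expressed genes were. Without any other array 13 or 14 were negative.

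Psma3, of the alpha ring, was at 10.76, 10.93 and 10.997 in the knockout (lowest, median, highest) and 11.01, 11.08 and 11.18 in the wild type. The ranges met without overlap, and the difference was -0.18 ± 0.048 log2 (exact permutation p = 0.00216, limma adjusted p = 0.184). The signal is uncertain because 3 transcript clusters are annotated to Psma3; the other two gave -0.15 ± 0.065 and -0.18 ± 0.069. Psmb1 was at 10.23, 10.39 and 10.45 against 10.44, 10.49 and 10.55, a difference of -0.115 ± 0.042, with an exact permutation p of 0.00649 and a limma adjusted p of 0.252. Knockout replicate 1 was its lowest array, and without it the difference was -0.085. Psma4 was at 9.91, 9.95 and 9.997 against 9.98, 10.02 and 10.14, a difference of -0.091 ± 0.038 (exact permutation p = 0.013, limma adjusted p = 0.308).

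The constitutive catalytic subunits had small negative differences, none past an unadjusted p of 0.05 in limma. Psmb7 was at 10.30, 10.37 and 10.41 in the knockout against 10.41, 10.42 and 10.51, a difference of -0.071 ± 0.033 (exact permutation p = 0.00433, limma unadjusted p = 0.0536). Psmb6 differed by -0.031 ± 0.037 and Psmb5 by -0.011 ± 0.042, with 95% intervals of -0.11 to 0.049 and -0.10 to 0.08, and without knockout replicate 1 by -0.014 and -0.031. The sign of Psmb5 turned to 0.011 after quantile normalisation. The remaining core genes, Psma1, Psma2, Psma5, Psma6, Psma7, Psmb2, Psmb3 and Psmb4, lay between -0.073 and -0.006. Psmb3 had another cluster of similar level with a difference of 0.013 ± 0.036, so its sign was not settled.

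**Figure D3:**
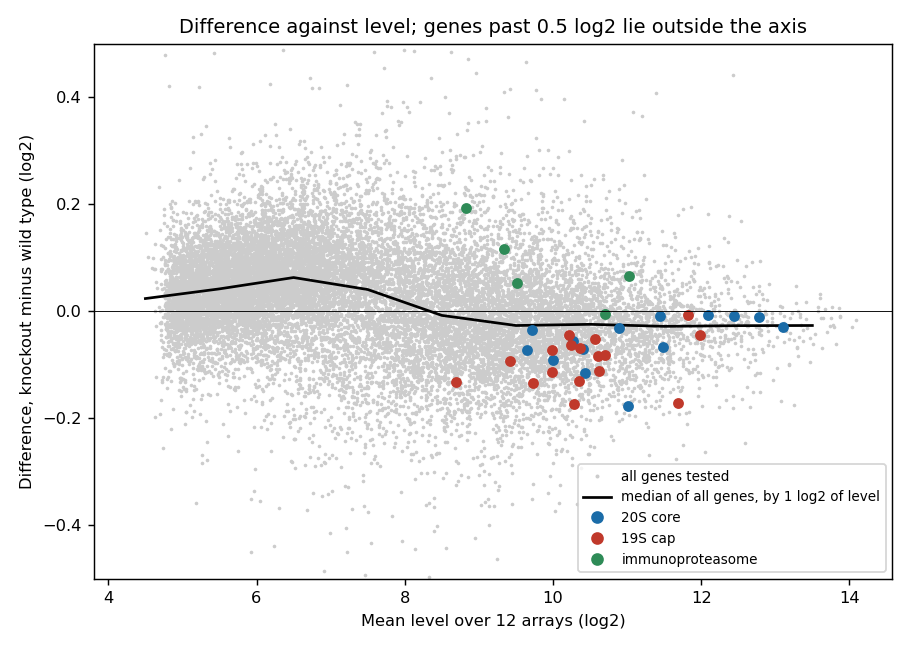
Difference between genotypes (y axis, log2, knockout minus wild type) against mean level over 12 arrays (x axis, log2) for 17807 genes, with the median of all genes in steps of 1 log2 and the core, cap and immunoproteasome genes in colour; 40 genes lie outside the y axis. The median of all genes falls below 0 above a level of 8, and the cap genes lie mostly under it.

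Members of the complex varied together within a genotype, but loosely. After each genotype's mean was subtracted, the median Pearson correlation over the 12 arrays was 0.353 among the 136 pairs of cap genes, 0.185 among the 91 pairs of core genes and 0.303 between core and cap. Over all pairs of the 7460 well-expressed genes it was 0.045. These values share the arrays and their normalisation and are a description. The closest core and cap pairs were Psma1 with Psmd14 (0.919) and Psma3 with Psmd8 (0.899), chosen after their values were seen. Psmb5 ran against Psmb1 (-0.535) and Psmb6 (-0.521), which without knockout replicate 1 were at -0.224 and -0.308.

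The immunoproteasome genes mostly had differences of the other sign. Psmb8, Psmb9 and Psmb10 had positive differences of 0.19 ± 0.14, 0.12 ± 0.13 and 0.053 ± 0.16 log2, and over the 5 genes of the group the median was 0.067 with 4 of 5 positive. None was past an unadjusted p of 0.05 in either direction in limma without a replicate block. Their errors in that fit were large because the arrays of each genotype spread widely. With the replicate number as a block, Psmb8 had a limma unadjusted p of 0.0388.

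Psmb8, the beta-5 replacement, was at 9.46, 8.86, 9.02, 8.69, 8.85 and 8.63 in knockout replicates 1 to 6 and at 9.12, 8.74, 8.52, 8.80, 8.63 and 8.54 in the wild type. Knockout replicate 1 was the highest of all arrays and wild type replicate 1 the highest of its genotype, and the remaining arrays overlapped. The 95% interval of the difference was -0.11 to 0.50, with an exact permutation p of 0.238 and a limma adjusted p of 0.529. Psmb9, the beta-1 replacement, was at 9.97 in knockout replicate 1 and 9.09 to 9.51 in the other knockout arrays, against 9.12 to 9.47 in the wild type. Psmb10, the beta-2 replacement, was at 10.14 in knockout replicate 1 and 9.10 to 9.75 in the others, against 9.25 to 9.85. Without knockout replicate 1 the 3 differences were 0.085, 0.002 and -0.067, and the median of the 5 genes was 0.002. Without knockout replicate 6 that median was 0.14.

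**Figure D4:**
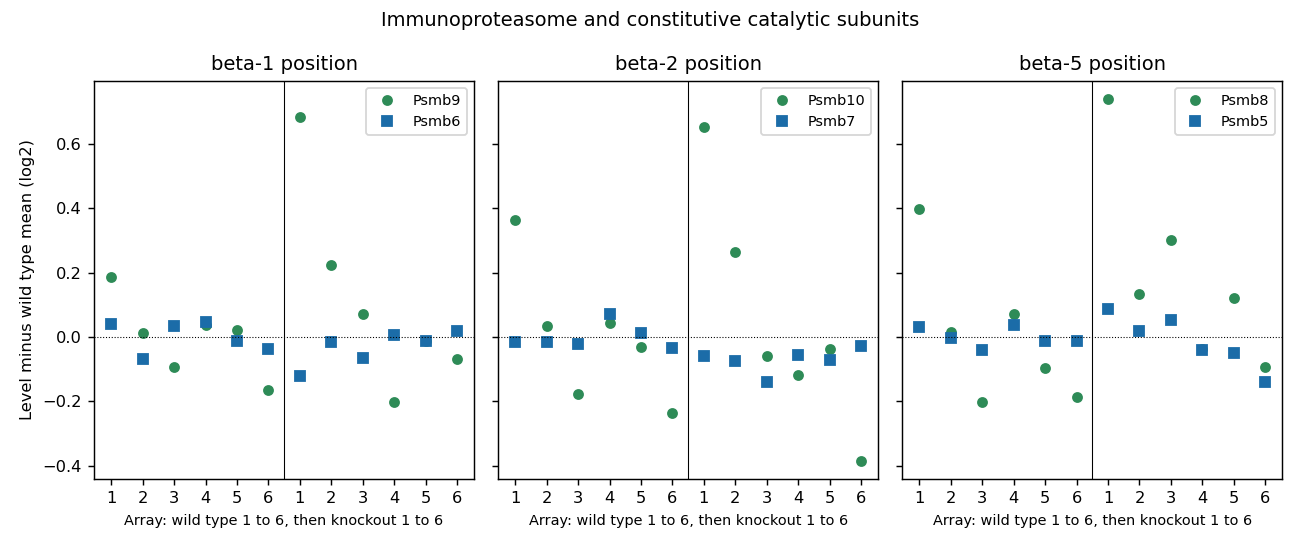
Level of each catalytic subunit minus its wild type mean (y axis, log2) on the 12 arrays (x axis), with immunoproteasome subunits as green circles and constitutive ones as blue squares. Psmb8, Psmb9 and Psmb10 are highest in knockout replicate 1, and so is Psmb5 by a small margin (12.88 log2, then 12.84 in knockout replicate 3). Psmb5, Psmb6 and Psmb7 keep a narrow range on all arrays.

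The immunoproteasome genes varied together more closely than the constitutive subunits did. Within genotypes, Psmb9 and Psmb10 correlated at 0.917, Psmb8 and Psmb10 at 0.903 and Psmb8 and Psmb9 at 0.89 over 12 arrays. Without knockout replicate 1 these were 0.851, 0.822 and 0.786. Over all 10 pairs with Psme1 and Psme2 included the median was 0.818, or 0.68 without that array, where the lowest pair was Psme2 with Psmb8 at 0.325. Against the 31 core and cap genes, the 3 subunits had a median correlation of -0.159, or 0.061 without that array. Psmb5 was an exception among the constitutive catalytic genes: it correlated with Psmb8 at 0.812, and at 0.727 without knockout replicate 1, whereas Psmb1 correlated with Psmb9 at -0.854, and at -0.605 without it. These pairs were picked as extremes after their values were seen. Wild type replicate 1 was the highest of its genotype for Psmb8, Psmb9, Psmb10, Psme1 and Psme2. Correlations without that wild type array were not computed.

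Psme1 and Psme2 form PA28, a ring that opens the core and is induced together with the immunoproteasome. Psme1 was at 10.55, 10.72 and 10.85 in the knockout (lowest, median, highest) and 10.60, 10.71 and 10.82 in the wild type. Its difference was -0.004 ± 0.061 log2 with a 95% interval of -0.14 to 0.13. Psme2 was at 10.94, 11.04 and 11.24 against 10.94, 11.01 and 11.03, a difference of 0.067 ± 0.048. Its highest value was that of knockout replicate 1, without which the difference was 0.031. A further transcript cluster annotated to both Psme2 and its near copy Psme2b differed by -0.042 ± 0.059, so the sign for Psme2 was uncertain.

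**Figure D5:**
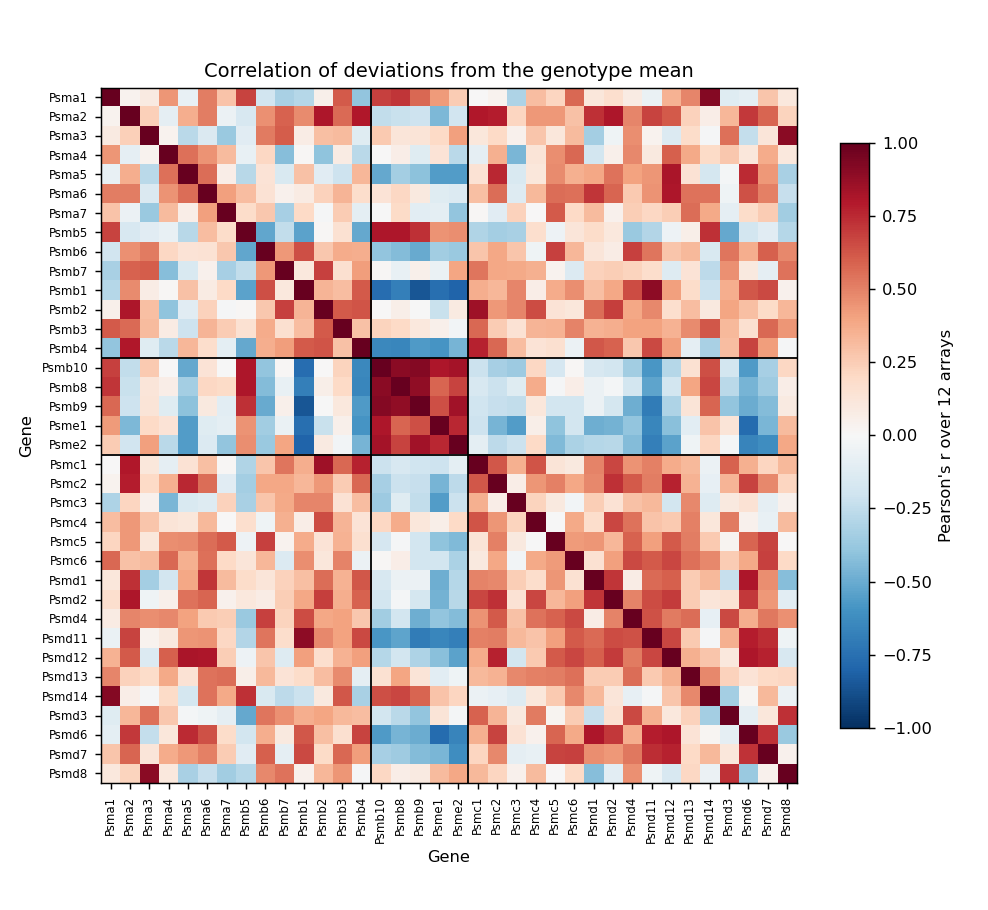
Pearson's r over 12 arrays between deviations from the genotype mean, for 14 core, 5 immunoproteasome and 17 cap genes (both axes; black lines part the groups; red is positive, blue negative). The immunoproteasome block is uniformly red, with pairwise values from 0.58 to 0.917 (0.325 to 0.851 without knockout replicate 1), and core and cap pairs are mixed, from -0.535 to 0.919.

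Genes of MHC class I antigen processing and its regulators, the interferon gamma receptor among them, were compared beside the immunoproteasome, since in the RefSeq gene order Psmb9 lies between H2-DMb1 and Tap1, and Psmb8 between Tap1 and Tap2. Over 14 such genes tested, 13 of them well expressed, the median was 0.046. At an unadjusted p under 0.05, 1 was higher and 1 lower, against 3.83% and 10.8% of well-expressed genes. Without knockout replicate 1 the counts were the same and the median was -0.002. Those of lowest p were Nlrc5, a class I transactivator (0.19 ± 0.064), Pdia3, a loading chaperone (-0.125 ± 0.053), and Tap2, a peptide transporter chain (0.14 ± 0.067). Tap1, the other chain, differed by 0.081 ± 0.09, or 0.012 without knockout replicate 1, and was at 10.56 in knockout replicate 1 against 9.97 to 10.38 elsewhere. Knockout replicate 1 was also highest for Irf8, at 11.25 against at most 10.76, and for Irf1, at 9.16 against at most 8.75; Tap1, Irf8 and Irf1 were chosen after their values were seen. The 15 interferon-induced genes tested had a median of 0.015. At that threshold 1 was lower (Ifit2, -0.17 ± 0.059) and 0 higher, against 6.39% and 8.47% of all transcript clusters. In that list knockout replicate 1 lay within the others, at a mean of 7.62 against 7.44 to 7.96. Over the 14 class I genes knockout replicate 1 lay above them, at a mean of 10.92 against 10.44 to 10.68. The part of neutrophil or other cells in its immunoproteasome level was not tested.

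Of the 10 remaining activators, inhibitors and assembly factors, 7 had negative differences, where 60.1% of well-expressed genes did. Against 10.8% of well-expressed genes, 2 of the 10 (20%) were lower at an unadjusted p under 0.05. Psmf1 (PI31), which binds the core and acts on its assembly and activity, was at 10.97, 11.26 and 11.41 in the knockout, and 11.29, 11.39 and 11.61 in wild type mice. Its difference was -0.18 ± 0.074 (exact permutation p = 0.039, limma adjusted p = 0.302), or -0.125 without knockout replicate 1, its lowest array. Psmg2, a chaperone of alpha ring assembly, was at 9.95, 10.32 and 10.44 against 10.36, 10.45 and 10.52, a difference of -0.17 ± 0.072 (exact permutation p = 0.0238, limma adjusted p = 0.316), or -0.10 without that array. Psmd5, a chaperone of the cap's base, was at 10.15, 10.29 and 10.40 against 10.32, 10.39 and 10.41, a difference of -0.10 ± 0.051.

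The other cap chaperones, Psmd9 and Psmd10, differed by -0.10 ± 0.068 and -0.096 ± 0.052, or -0.055 and -0.06 without knockout replicate 1. Chaperones of the core were divided: beside Psmg2, Psmg1 differed by 0.006 ± 0.055, Psmg3 by 0.10 ± 0.074 and Psmg4 by 0.066 ± 0.045. Wild type replicate 3 was the lowest array for Psmg3, at 6.40, and without it the difference was 0.031; for Psmg4 it was then 0.043. Psme3 (PA28 gamma, a nuclear activator) and Psme4 (PA200, an activator linked to histone turnover) were at -0.031 ± 0.04 and -0.029 ± 0.038.

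The tissue-restricted subunits lay below the array medians of 6.5 to 6.62 log2. Psma8, an alpha subunit of the testis, had a lowest value of 5.86, a median of 5.96 and a highest of 6.07 in the knockout, and 5.97, 6.11 and 6.27 in wild type mice. Psmb11, the beta-5 subunit of the thymic cortex, was at 6.08, 6.16 and 6.33 against 5.95, 6.04 and 6.10. Differences were -0.14 ± 0.054 (exact permutation p = 0.0238, limma adjusted p = 0.273) and 0.14 ± 0.047 (exact permutation p = 0.00433, limma adjusted p = 0.225). Whether these signals come from the genes' own transcripts was not tested. Psmc3ip, which acts in meiotic recombination, had the largest negative difference of the 50, at -0.22 ± 0.066 (limma adjusted p = 0.214), and Psme3ip1 was at 0.06 ± 0.052.

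Proteasome parts and partners outside the naming rule lay on the same side as the cap. All 8 tested were well expressed and had negative differences, where 60.1% of well-expressed genes did. Their median was -0.10, against -0.021 for that class. At an unadjusted p under 0.05, 10.8% of well-expressed genes were lower, or 8.54% without knockout replicate 1. Of the 8, 4 were lower, or 2 without that array. Those of lowest p were Pomp, the maturation chaperone of the core (-0.125 ± 0.043), Uchl5, a deubiquitinase of the cap (-0.11 ± 0.047), and Ubxn1, a ubiquitin-binding p97 cofactor (-0.086 ± 0.036). Of 10 ubiquitin, shuttle and p97 genes, all well expressed, 8 were negative and the median was -0.024, against the same 60.1% and -0.021. Against the same 10.8%, 2 of the 10 were lower at that threshold. These were the p97 cofactors Faf1, at -0.16 ± 0.035 and without overlap between genotypes, and Nsfl1c, at -0.12 ± 0.037. Of 10 regulators of proteasome genes, none was past it in either direction, with a median of 0.017. Nfe2l1, which raises proteasome transcription when the complex is short, differed by 0.075 ± 0.049; it was chosen after its value was seen. The regulators of lowest p were Stat3 (0.19 ± 0.11, or 0.099 without knockout replicate 1), Ngly1 (-0.12 ± 0.069) and Nfyb (-0.098 ± 0.056).

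Lists for other processes and cells were compared in the same way, and their counts at an unadjusted p under 0.05 stand against 6.39% of all transcript clusters lower and 8.47% higher. The median difference over all transcript clusters was 0.015. Of 25 cell cycle genes, all of them well expressed, 23 were negative and 15 lower, against 60.1% and 10.8% of well-expressed genes. Without knockout replicate 1, 11 were lower, against 8.54%. The median of the 25 genes was -0.11, and their array means ran from 11.41 to 11.53 in the knockout, against 11.52 to 11.65. All 10 erythroid genes, also well expressed, were negative with 1 lower, against the same 60.1% and 10.8%. Their median was -0.12, or -0.036 with 8 negative without knockout replicate 1. All 9 megakaryocyte and platelet genes were positive with 5 higher, or 9 higher without that array. They were well expressed, a class in which 60.1% were negative and 3.83% higher. All 13 B and plasma cell genes were positive with 9 higher, or 12 positive and 7 higher without it. All 12 stem and progenitor genes were positive with 8 higher, or 11 positive and 5 higher without it. Of these last lists 3 and 7 genes were well expressed. The 12 MHC class II and dendritic genes had 4 lower and 1 higher, or 5 and 2 without knockout replicate 1, and the 11 T, NK and innate lymphoid genes 3 lower and 2 higher, or 2 and 2. The 14 neutrophil granule genes had 0 in either direction and a median of 0.25, or 2 higher and 0.052 without that array. The 4 tested lineage genes had 0 in either direction. The part of these processes and cells in the cap and core differences was not tested.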

How the data were processed

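The 12 arrays were assigned to genotype from their titles. The deposited values are log2, made by the authors with RMA16 in GeneSpring GX version 11, per the labels' series design text; the log2 scale was read from their range, 3.18 to 14.33. A change shared by most genes can be lost in such normalisation. No source used here names the array's genome build.

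Of 34760 transcript clusters, 29541 were tested, those above the 20th percentile of at least 1 array. Genes came from platform annotation; 57 clusters name a member, 1 of them with several genes and not used. All 50 Entrez identifiers were found in RefSeq on GRCm38.p6, with 0 symbols changed. Genotypes were compared by limma 3.58.1 (R 4.3.3; lmFit, then eBayes) without covariates, as knockout minus wild type, with Benjamini-Hochberg adjustment over all clusters and a threshold of 0.05. An exact two-sided permutation test of the 12 values was added for single genes, without adjustment over the members. Genes described in full were the immunoproteasome, PA28, constitutive catalytic and tissue-restricted genes, the 3 of lowest p in the core, cap and helper groups, and those without overlap; of each gene list, up to 3 of lowest p were eligible. Members and lists were chosen with earlier results of these data known. The limma step was tested on simulated data. The number of arrays limits precision. Alternatives changed the scaling, the filter, the cluster chosen per gene, the variance trend, the weights of arrays and the replicate block, or left out each array; leaving out both arrays numbered 1 was chosen after seeing the data.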

Additional observations from a re-analysis of the deposited data

Results flagged for a closer look

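Each gene's 6 values per genotype were searched for an array set apart. The gap to its nearest neighbour, divided by the range of the 6 values, had to exceed Dixon's 95% critical value for 6 samples. Of 102 such sets, 50 members and Nfil3 in both genotypes, 8 held a value apart, where chance gives about 5. In the knockout these were Psmb1 at 10.23 and Psmd10 at 9.82 in replicate 1, both the lowest, Psmc4 at 10.45 in replicate 2, the lowest, and Psma3 at 10.76 in replicate 3, the lowest. In the wild type they were Nfil3 at 7.66 in replicate 1, the highest, Psmg3 at 6.40 in replicate 3, the lowest, Psmc6 at 10.27 in replicate 5, the lowest, and Psmf1 at 11.61 in replicate 6, the highest. Without wild type replicate 5 the Psmc6 difference was -0.19, and without knockout replicate 3 that of Psma3 was -0.145 log2.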

How the results depend on the processing

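No member passed the adjusted threshold of 0.05 in limma under any alternative run. In the main fit 16 were lower and 1 higher at an unadjusted p under 0.05, against 6.39% and 8.47% of all transcript clusters. The number lower was 10 after quantile normalisation, 8 without both arrays numbered 1 (chosen after seeing the data) and 8 to 16 with each array left out, the fewest without wild type replicate 3. Of well-expressed genes, 10.8% were lower in the main fit, 8.06% after quantile normalisation, 8.28% without both arrays numbered 1 and 8.16% to 11.4% with each array left out. The number of members higher was 0 with the 50th percentile filter, with quantile normalisation and with centring, and 2 with the replicate block. Centring on the array median moved the core median to -0.085 and the cap median to -0.124. With each array left out the cap median ran from -0.098 to -0.079, the core from -0.066 to -0.031, the immunoproteasome from 0.002 to 0.14 and the helper group from -0.077 to -0.041 (without knockout replicate 1). The core median was -0.027 after quantile normalisation and -0.029 without both arrays numbered 1. Among the genes described in full, signs turned for Psme1, Psmb5 and Psmb10. After quantile normalisation Psme1 was at 0.019 and Psmb5 at 0.011. With each array left out Psme1 ran from -0.034 to 0.026, Psmb5 from -0.031 to 0.015 and Psmb10 from -0.067 to 0.14. Of the other members, leaving out 1 array turned Psma2 (to 0.008), Psma6 (0.012), Psmb2 (0.017), Psmb4 (0.021), Psmd2 (0.014) and Psmg1 (-0.015).

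Whether the replicate numbers pair the arrays was not settled. Same-numbered arrays correlated from -0.033 to 0.462, over 0.1 in 3 of 6 pairs. Of the 6 knockout arrays, 3 correlated best with the wild type array of their own number. With the number as a block, 13 members were lower at the unadjusted threshold, 6 of them cap genes in place of 9, and 0 passed the adjusted one. In that fit 13.5% of well-expressed genes were lower, in place of 10.8%. Of the 29541 transcript clusters, 2274 were lower and 2875 higher. The 2 members higher were Psmb11 and Psmb8, the latter at 0.194 ± 0.078 (limma unadjusted p = 0.0388, adjusted p = 0.265).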
